A study of Homo sapiens with 12 samples.

Results

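This report describes 6 RNA-seq libraries out of 12, the 3 labelled C-body null and the 3 labelled mCherry, chosen by their titles and compared across all genes. All 12 came from OCI-AML3, a human acute myeloid leukaemia line whose mutant nucleophosmin (NPM1c) lies largely in the cytoplasm, here with the endogenous mutant carrying a degron tag. C-body null cells (NPM1c-degron; Cbodynull-mCherry) and mCherry cells (NPM1c-degron; mCherry) were both infected with lentivirus, both received 500 nM dTAG-13, a molecule that brings the tagged protein to degradation, 48 hours after infection, and were both sorted for mCherry 24 hours later. The groups differ in whether the virus carried the C-body null construct or mCherry alone. The labels do not say what was altered in the C-body null construct. The other libraries, used here only for side-by-side levels, were 3 FL-NPM1c libraries (full-length NPM1c with mCherry, treated in the same way) and 3 NTC DMSO libraries (NPM1c-degron, solvent by title, although their treatment label reads dTAG). The same 48 and 24 hours are recorded for the NTC DMSO libraries, but which virus these cells received, if any, is not given here. Comparisons with them may therefore differ in more than dTAG-13 and the construct. Each group had n = 3, and whether replicates were separate cultures is not in the labels. The p-values therefore rest on the variation among these libraries, which may be technical only. The cell line labels carry running numbers where the protocol names a single line, and a sorted pool of infected cells is a single population in each library.

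Nucleophosmin is a nucleolar chaperone that shuttles between nucleolus and cytoplasm, and the leukaemia mutant gains a nuclear export signal. In leukaemia with NPM1c the late HOXA and HOXB genes and MEIS1, which encode homeobox transcription factors and a cofactor that binds DNA with them, are held at high levels through the menin and MLL chromatin proteins. Loss of the mutant is known to lower these genes and to let the cells take on features of mature myeloid cells. The comparison asked which transcripts differ when cells treated with dTAG-13 are given the C-body null construct in place of mCherry alone.

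Relative to mCherry cells, C-body null cells had less RNA of 7 HOX cluster genes, of MEIS1, of 3 noncoding RNAs in the HOX clusters and of both chains of the interleukin 18 receptor. They had more RNA of NPM1 itself, of a small set of monocyte genes that included LYZ, IRF8, CCR2, TREM2 and C3, and of the granule protease gene PRTN3. Not all of these calls were stable. Those of LYZ, TREM2, C3, PRTN3, HOXA9, HOXA10, HOXA11, HOXB9, HOXB-AS1 and HOXB-AS3 ended in at least some fits with a library left out, as given below. Of 24064 genes tested with edgeR's quasi-likelihood test, 52 were higher in C-body null cells (0.216%) and 91 were lower (0.378%) at a Benjamini-Hochberg adjusted p under 0.05. At an unadjusted p under 0.05, 1339 were higher and 1532 lower. Changes were small, with a median log2 fold change of 0.63 among genes called higher and -0.64 among genes called lower, against -0.01 over all genes. At least 2-fold changes were seen for 12 of the genes called higher and 7 of those called lower. All 143 called genes had values that did not overlap between the groups, as did 7.36% of all tested genes in the higher and 7.6% in the lower direction. The split of calls depended on the method, with 36.4% of calls in the higher direction in the main analysis (52 higher, 91 lower), 55.5% with DESeq2 (198 higher, 159 lower) and 47.3% with no low-count filter (174 higher, 194 lower).

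**Figure D1:**
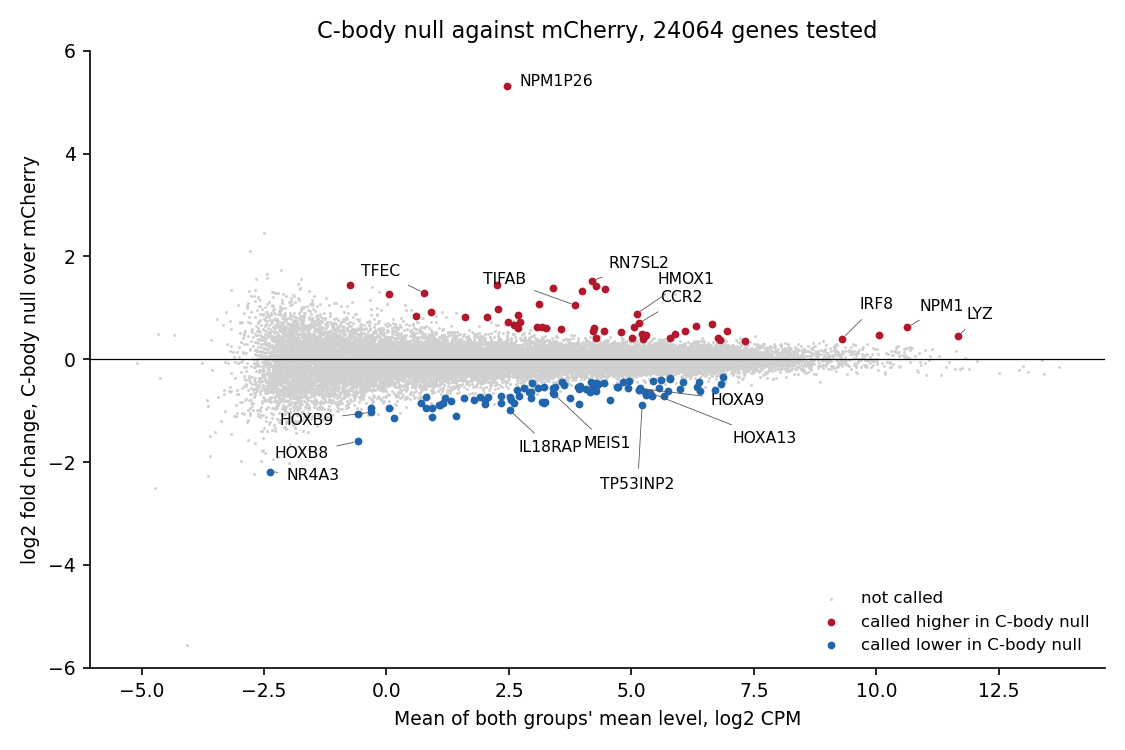
Each point is 1 of 24064 tested genes, with its mean level over both groups (log2 CPM, the count scaled to the size of its library) on the x axis and its log2 fold change, C-body null over mCherry, on the y axis. Red and blue points passed the test. Most red and blue points lie within 1 log2 unit of 0, and the pseudogene NPM1P26 stands alone at 5.32.

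The C-body null libraries held 36090520, 39385637 and 42187963 gene counts, and the mCherry libraries held 36379016, 45565751 and 30519165 gene counts. Mitochondrial transcripts took 7.37%, 7.06% and 7.63% of counts in C-body null libraries and 8.41%, 7.32% and 9.63% in mCherry libraries. The mCherry libraries did not lie together. The first principal component of the 6 libraries held 31.7% of the variance of the 2000 most variable genes. On it C-body null libraries lay between -16.3 and -8.3, and mCherry libraries lay at 19.97, -3.88 and 19.73 for replicates 1, 2 and 3. On the second component (22.3%), mCherry replicates 1, 2 and 3 lay at 17.55, 1.88 and -20.41. Replicate 2 was thus apart from the other mCherry libraries on the first component, and replicates 1 and 3 were far from each other on the second. Without mCherry replicate 2, 761 genes were called higher (3.1% of 24565 tested) and 638 lower (2.6%), and these included all 143. Leaving out any of the other 5 libraries gave fewer calls, with 25 higher and 35 lower without C-body null replicate 1, 26 and 42 without replicate 2, 25 and 40 without replicate 3, 22 and 51 without mCherry replicate 1, and 33 and 66 without mCherry replicate 3. The 37 genes called in each of these 6 fits (13 higher, 24 lower) are described below as called whichever library was left out. Of 38 monocyte and macrophage genes listed as markers of the line's lineage, 35 passed the filter on low counts. Of 10 T and NK cell markers 2 passed, of 9 B and plasma cell markers 2, of 14 erythroid and megakaryocyte markers 3 and of 11 epithelial and fibroblast markers 3. Counts were 0 in all 6 libraries for 4, 3, 5 and 4 members of these 4 lists, among them CD3D, CD3E, MS4A1, HBB and EPCAM. The summed level of the tested T and NK cell markers, IL7R and NKG7, was 3.79 to 4.43 CPM in C-body null libraries and 6.18 to 8.25 CPM in mCherry libraries, and its part in the results was not tested.

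NPM1 (chromosome 5, 171387116 to 171411137, plus strand, GRCh38) is the gene whose mutant product carries the degron tag. It reached 1931, 1937 and 1897 CPM in C-body null libraries, against 1310, 1059 and 1387 CPM in mCherry libraries. The C-body null libraries lay close together and above every mCherry library, of which replicate 2 was the lowest. The log2 fold change was 0.62 ± 0.09 (SE; edgeR adjusted p = 0.0029), and NPM1 was called whichever library was left out. Gene counts cannot tell transcripts of the construct from those of the tagged gene, and dTAG-13 acts on protein, so this level does not report the degradation. NPM1 has many processed pseudogenes, copies of its spliced transcript elsewhere in the genome. Of 45 annotated, 9 passed the filter on low counts and 3 of these were called higher, where 0.216% of all genes were; they are named here after their values were seen. NPM1P26 (chromosome 10, 96560185 to 96560922, plus strand) had 12.8, 8.70 and 10.8 CPM in C-body null libraries, against 0.193, 0.257 and 0.367 CPM in mCherry libraries, a log2 fold change of 5.32 ± 0.26 (edgeR adjusted p = 1.02e-08). It had 7.20 ± 1.05 CPM in FL-NPM1c and 0.201 ± 0.112 CPM in NTC DMSO libraries (SD, n = 3 each), so it was high in C-body null and FL-NPM1c libraries and low in mCherry and NTC DMSO libraries. NPM1P27, the closest copy, rose by 1.32 ± 0.11 and was called whichever library was left out (adjusted p = 2.21e-05). NPM1P24 rose by 1.28 ± 0.26 (adjusted p = 0.031), a call kept only without mCherry replicate 2 among the 6 leave-one-out fits.

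The pseudogenes share much of their sequence with NPM1, and the treatment of reads that match several places is not given in the sources used here, so which locus their counts came from was not tested. Over the coding sequence of NPM1, the 9 tested copies were 93.2% to 98.7% identical to it. Of the 50-base windows of NPM1P27, 411 of 781 occur exactly in NPM1, of NPM1P24 91 of 845, and of NPM1P26 23 of 689. The stretch of NPM1P26 with the most differences in 120 aligned bases without gaps is shown beside NPM1 (coding bases 226 to 345, GENCODE 29 on GRCh38), because NPM1P26 had the largest fold change and yet few exact windows. The 8 capitals in each line mark the positions at which the copies differ.
NPM1: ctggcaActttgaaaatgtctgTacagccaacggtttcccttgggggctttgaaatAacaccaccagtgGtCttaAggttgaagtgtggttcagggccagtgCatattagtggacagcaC
NPM1P26: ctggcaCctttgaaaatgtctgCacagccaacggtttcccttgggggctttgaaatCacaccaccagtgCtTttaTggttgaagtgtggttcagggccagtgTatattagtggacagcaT

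**Figure D2:**
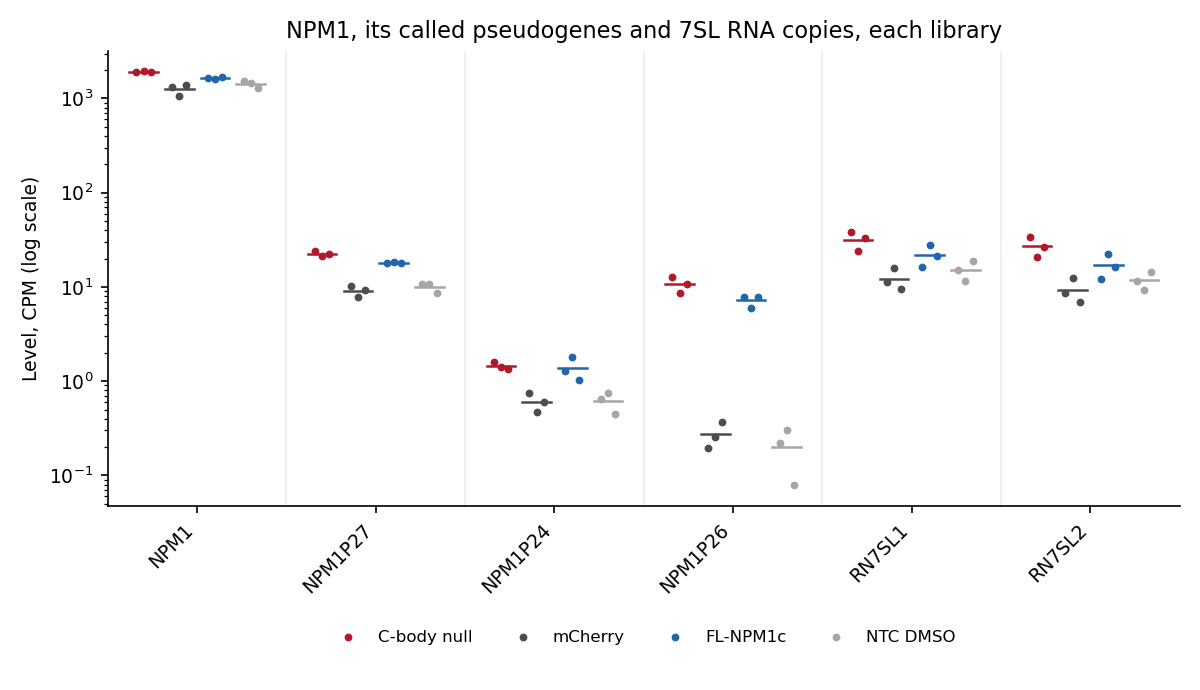
Points are the level of each library in CPM on a log scale for NPM1, its 3 called pseudogenes and 2 called copies of 7SL RNA, with C-body null, mCherry, FL-NPM1c and NTC DMSO from left to right and a line at each mean. NPM1P26 lies at 8.70 to 12.8 CPM in C-body null libraries and at 0.193 to 0.367 CPM in mCherry libraries.

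Copies of 7SL RNA, the RNA of the signal recognition particle, were also higher. RN7SL2 had 33.9, 20.8 and 26.6 CPM in C-body null libraries, against 8.57, 12.5 and 6.92 CPM in mCherry libraries, a log2 fold change of 1.52 ± 0.24 (edgeR adjusted p = 0.0052). RN7SL1 rose by 1.36 ± 0.22 (adjusted p = 0.0071). The C-body null libraries were all higher for both, and they spread more for these RNAs than for NPM1. Without mCherry replicate 3 the calls of RN7SL1 and RN7SL2 ended (adjusted p = 0.081 and 0.058). RN7SL2 overlaps AL627171.2 on the same strand, so their reads cannot be told apart. 7SL RNA has no long poly(A) tail and its copies are nearly identical, so these values are uncertain in a library selected for poly(A) RNA. They were the 2 genes called of 9 tested for the particle's RNA and proteins, where 0.216% of all genes were called higher, with a list median of -0.02.

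Several HOX cluster genes fell. Of 16 tested, 7 were called lower (background 0.378%) and 0 higher (0 also at an unadjusted p under 0.05 and with DESeq2), and the list's median log2 fold change was -0.47, against -0.01 over all genes. For 10 of the 16 the C-body null values all lay below the mCherry values, where 7.6% of all genes did. HOXB5 was the only one of the 16 with a positive fold change (0.33, adjusted p = 0.52). The count was 7 without mCherry replicate 2 or 3, 5 without C-body null replicate 3 or mCherry replicate 1, and 4 without C-body null replicate 1 or 2. With the 2 groups fitted alone it was 3, HOXA9, HOXA13 and HOXB8 (adjusted p = 0.042, 0.023 and 0.034), and HOXA10, HOXA11, HOXB3 and HOXB9 no longer passed (0.15, 0.0997, 0.105 and 0.19).

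In the HOXA cluster on chromosome 7, HOXA9, the homeobox gene most often studied in this leukaemia, had 29.9, 27.9 and 29.3 CPM in C-body null libraries, against 44.0, 39.2 and 45.6 CPM in mCherry libraries. The groups did not overlap, and the fall of 0.56 ± 0.09 on the log2 scale passed the test (edgeR adjusted p = 0.0064; 0.060 without C-body null replicate 2). HOXA9 overlaps HOXA10 on the same strand. HOXA13, at the 5′ end of the cluster (27193503 to 27200106, minus strand), had 33.9, 30.7 and 32.2 CPM in C-body null libraries, against 50.9, 46.8 and 54.0 CPM in mCherry libraries. It fell by 0.65 ± 0.09 (adjusted p = 0.0024) and was called whichever library was left out. Between them on the chromosome, HOXA11 fell by 0.52 ± 0.08 (adjusted p = 0.0069; 0.066 without C-body null replicate 1). HOXA10 fell by 0.38 ± 0.07 (adjusted p = 0.014), a call that ended without C-body null replicate 1, 2 or 3 or mCherry replicate 1 (adjusted p = 0.0504 to 0.093). HOXA3 and HOXA5 lay under 1 CPM in every library of both groups and did not pass the test.

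In the HOXB cluster on chromosome 17, HOXB8 (48611377 to 48614939, minus strand) fell most among the tested HOX genes. It had 0.302, 0.329 and 0.357 CPM in C-body null libraries, against 1.08, 1.05 and 0.869 CPM in mCherry libraries, a fall of 1.597 ± 0.22 on the log2 scale (edgeR adjusted p = 0.0025) that was called whichever library was left out. Its neighbour HOXB9 had 0.577, 0.455 and 0.572 CPM in C-body null libraries, against 1.24, 1.14 and 0.869 CPM in mCherry libraries. HOXB9 fell by 1.03 ± 0.20 (adjusted p = 0.024), and the call ended without C-body null replicate 1, 2 or 3 or mCherry replicate 1 (adjusted p = 0.075 to 0.14). HOXB3, a gene nearer the 3′ end of the cluster, had 13.0, 12.7 and 12.4 CPM in C-body null libraries, against 17.2, 19.8 and 17.5 CPM in mCherry libraries. It fell by 0.52 ± 0.09 (adjusted p = 0.0076) and was called whichever library was left out, with a highest adjusted p of 0.048, but not with the 2 groups alone. HOXB2, HOXB4, HOXB6, HOXB7 and HOXB13 had fold changes of -0.23, -0.25, -0.36, -0.42 and -0.11 and did not pass the test. On the same strand, HOXB8 and HOXB9 overlap HOXB7, and HOXB3 overlaps HOXB4, HOXB5 and HOXB6.

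MEIS1 and some noncoding RNAs of the HOX clusters were lower as well. Of 8 tested long noncoding RNAs in the clusters, 3 were called lower (background 0.378%) and 0 higher (0 higher also at an unadjusted p under 0.05 and with DESeq2), with a median of -0.46. The count was 1 without C-body null replicate 1 or 2 or mCherry replicate 1. HOTTIP, transcribed from the 5′ end of the HOXA cluster, had 13.4, 14.5 and 14.1 CPM in C-body null libraries, against 21.03, 22.8 and 21.5 CPM in mCherry libraries. It fell by 0.64 ± 0.08 (edgeR adjusted p = 0.0017), was called whichever library was left out (highest adjusted p = 0.021), and overlaps HOXA13 on the other strand. HOXB-AS1 and HOXB-AS3 overlap HOXB3 on the other strand and fell by 0.53 ± 0.09 and 0.58 ± 0.12 (adjusted p = 0.0093 and 0.034). Both calls ended without C-body null replicate 1 or 2 or mCherry replicate 1 (adjusted p = 0.053 to 0.083 for HOXB-AS1 and 0.10 to 0.21 for HOXB-AS3), and that of HOXB-AS3 also without C-body null replicate 3 (0.055). With the 2 groups alone neither passed (0.12 and 0.16). Since the strand setting of the counting is not given, reads of such pairs cannot be told apart. MEIS1 (chromosome 2, 66433452 to 66573869, plus strand), which encodes the cofactor of the HOX proteins, had 8.41, 7.89 and 8.39 CPM in C-body null libraries, against 13.7, 12.2 and 13.7 CPM in mCherry libraries. The groups were well apart, and MEIS1 fell by 0.68 ± 0.09 (adjusted p = 0.0019) whichever library was left out. It was the only one called of 8 MEIS and PBX genes, where 0.378% of all genes were called lower. PBX3, another cofactor, had a fold change of -0.28 (adjusted p = 0.23; -0.34, adjusted p = 0.046 without mCherry replicate 2).

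**Figure D3:**
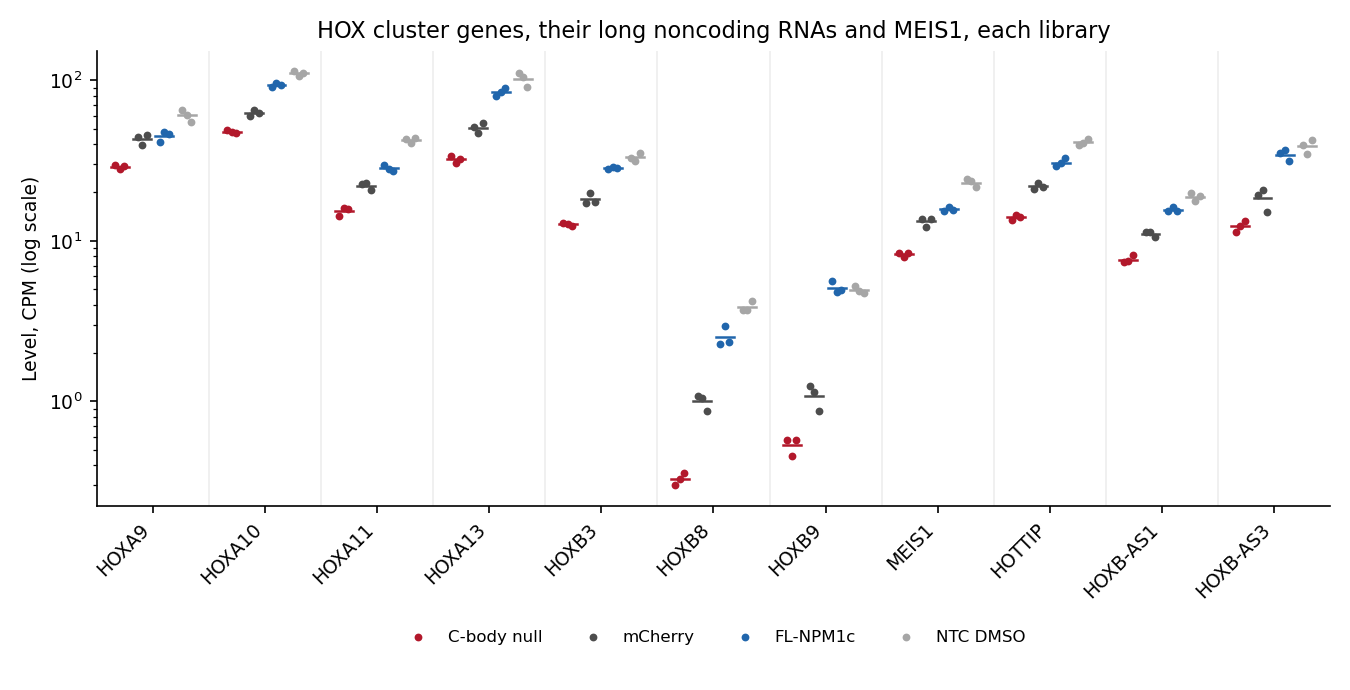
Points are the level of each library in CPM on a log scale for the 7 called HOX genes, MEIS1 and 3 called noncoding RNAs, with C-body null, mCherry, FL-NPM1c and NTC DMSO from left to right and a line at each mean. In each gene the C-body null libraries are the lowest of the 4 groups, as for HOXB8 at 0.302 to 0.357 CPM against 0.869 to 1.08 CPM in mCherry libraries.

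Among genes outside HOX that menin and MLL are known to hold active, 1 of 15 was called lower (background 0.378%) and 0 higher. It was IGF2BP3, an RNA-binding protein (-0.37 ± 0.08, edgeR adjusted p = 0.044; 0.24 with the 2 groups alone). Its call was kept only without mCherry replicate 2 among the leave-one-out fits. At an unadjusted p under 0.05, 7 of the 15 were lower and 2 higher, where 1532 and 1339 of all 24064 genes were. DESeq2 called 1 lower and 2 higher. The values of 7 members lay wholly below and of 2 wholly above the mCherry values, where 7.6% and 7.36% of all genes did. The list's median was -0.22. FLT3, a receptor tyrosine kinase, and BCL2, an inhibitor of cell death, had positive fold changes of 0.33 and 0.31 that did not pass the test (adjusted p = 0.14 and 0.18), and the kinase gene CDK6 had -0.24 (adjusted p = 0.34). Of 16 subunits of the menin and MLL complexes 0 were called (3 at an unadjusted p under 0.05 and 0 with DESeq2), and of 16 genes of the super elongation complex and DOT1L 0 were called (0 and 0). The median of the menin and MLL subunits was 0.12. Without mCherry replicate 2, 3 of these subunits were called higher and 0 lower, where 3.1% and 2.6% of all genes were.

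Against FL-NPM1c libraries the 7 HOX genes named above as called were also lower in C-body null libraries. This comparison uses the same C-body null libraries, so its values stand beside those above and are not a second test of them. Over all genes 4.86% were called higher in C-body null than in FL-NPM1c libraries and 4.82% lower, and of 16 HOX genes 0 were higher and 12 lower, with a median of -1.01 against -0.01 over all genes. HOXB8 and HOXB9 averaged 0.330 ± 0.028 and 0.535 ± 0.069 CPM in C-body null libraries, 2.52 ± 0.36 and 5.12 ± 0.44 CPM in FL-NPM1c libraries, and 3.87 ± 0.28 and 4.94 ± 0.27 CPM in NTC DMSO libraries (SD, n = 3 each). HOXA13 averaged 32.3 ± 1.6 CPM in C-body null, 84.6 ± 4.8 CPM in FL-NPM1c and 102 ± 10 CPM in NTC DMSO libraries, a difference from FL-NPM1c of -1.39 ± 0.09 (edgeR adjusted p = 6.8e-08). HOXA9 differed less from FL-NPM1c, by -0.63 ± 0.09 (adjusted p = 1.9e-04). Against NTC DMSO libraries, where 14.1% of all genes were higher and 12.4% lower in C-body null libraries, 13 of the 16 HOX genes were lower and 1, HOXB5, was higher (0.61, adjusted p = 0.035).

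Outside the HOX clusters the largest decreases included both chains of the interleukin 18 receptor, which are encoded side by side on chromosome 2. IL18RAP, the accessory chain (102418689 to 102452565, plus strand), had 3.46, 3.64 and 4.34 CPM in C-body null libraries, against 7.60, 6.95 and 8.39 CPM in mCherry libraries. IL18R1, the ligand-binding chain (102311529 to 102398775, plus strand), had 6.60, 6.43 and 6.84 CPM in C-body null libraries, against 13.3, 10.2 and 12.6 CPM in mCherry libraries. For neither gene did the groups overlap. IL18RAP fell by 0.99 ± 0.12 and IL18R1 by 0.86 ± 0.11 (edgeR adjusted p = 0.0012 and 0.0017), and both were called whichever library was left out. The C-body null and FL-NPM1c libraries were near each other for both genes, with a difference of 0.04 ± 0.13 for IL18RAP and 0.02 ± 0.11 for IL18R1 (adjusted p = 0.90 and 0.92). NTC DMSO libraries were higher, at 23.8 ± 1.7 CPM for IL18RAP and 29.2 ± 2.0 CPM for IL18R1. Of 5 tested genes of the interleukin 1 and 18 receptor cluster and its partner chains these were the 2 called, where 0.378% of all genes were called lower. IL1RAP and IL1R1 had -0.15 and 0.02.

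TP53INP2, whose product acts in autophagy and as a nuclear cofactor, was among the genes with the smallest adjusted p. It had 26.1, 24.3 and 27.8 CPM in C-body null libraries, against 47.5, 49.1 and 48.5 CPM in mCherry libraries, a fall of 0.89 ± 0.08 (edgeR adjusted p = 2.4e-05). The groups were far apart relative to their spread, and the gene was called whichever library was left out. Its level was 94.2 ± 4.7 CPM in FL-NPM1c and 102 ± 4.1 CPM in NTC DMSO libraries (SD, n = 3 each). C3orf80 (-0.87 ± 0.13), the noncoding KDM7A-DT at the start of the histone demethylase gene KDM7A (-0.87 ± 0.14) and MALINC1 (-0.85 ± 0.11) also fell and were called whichever library was left out. MALINC1 overlaps PURA, a gene for a nucleic acid-binding protein that fell as well (-0.56, adjusted p = 0.011), on the other strand.

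The other genes named for large decreases held in fewer leave-one-out fits. The potassium channel subunit KCNMB4 fell by 0.95 ± 0.18, the lipid-presenting CD1A by 0.95 ± 0.18, the matrix glycoprotein SPARC by 0.86 ± 0.19, the neuropeptide Y receptor NPY1R by 0.86 ± 0.15, the vesicle-docking GTPase RAB27B by 0.82 ± 0.14 and the adaptor BCAR1 by 0.82 ± 0.15. The noncoding RNAs MKX-AS1 and LINC01971 fell by 0.95 ± 0.18 and 0.89 ± 0.19, and MKX-AS1 overlaps the homeobox gene MKX, which fell by 0.58 (edgeR adjusted p = 0.0088), on the other strand. The calls of SPARC and LINC01971 ended in every leave-one-out fit except that without mCherry replicate 2. Without C-body null replicate 1, those of KCNMB4, NPY1R, RAB27B, BCAR1 and MKX-AS1 ended. Without C-body null replicate 2, those of KCNMB4, CD1A, NPY1R, BCAR1 and MKX-AS1 ended, and without C-body null replicate 3, those of KCNMB4, CD1A, NPY1R and RAB27B. Without mCherry replicate 1, those of CD1A, BCAR1 and MKX-AS1 ended, and without mCherry replicate 3, that of KCNMB4. Their highest adjusted p over the 6 fits was 0.12 for KCNMB4, 0.10 for CD1A, 0.22 for SPARC, 0.069 for NPY1R, 0.067 for RAB27B, 0.083 for BCAR1, 0.10 for MKX-AS1 and 0.26 for LINC01971. With the 2 groups alone NPY1R and RAB27B passed and the others did not (adjusted p = 0.083 to 0.16). List members called lower with smaller or low-level changes were the oxygen-sensing factor EPAS1 (-0.40 ± 0.08), the endoplasmic reticulum factor CREB3L2 (-0.34 ± 0.07), the histone gene H2AC11 (-0.74 ± 0.15), the ribonuclease RNASE6 (-0.53 ± 0.11) and the nuclear receptor NR4A3 (-2.18 ± 0.46). NR4A3 lay at 0.055, 0.025 and 0.119 CPM in C-body null libraries, against 0.304, 0.343 and 0.301 CPM in mCherry libraries. The first 4 calls held only without mCherry replicate 2, and that of NR4A3 also without C-body null replicate 3, with a highest adjusted p of 0.20 to 0.29 over the 5 genes. None of the 5 passed with the 2 groups alone (adjusted p = 0.12 to 0.27).

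Genes of monocytes and macrophages were split. Of 35 tested, 5 were called higher (LYZ, IRF8, CCR2, TREM2 and C3, background 0.216%) and 0 lower (4 lower at an unadjusted p under 0.05 and 1 with DESeq2), and the median was 0.08. The number called higher was 3 without C-body null replicate 2 or 3 or mCherry replicate 1. The values of 12 members lay wholly above and of 3 wholly below the mCherry values, where 7.36% and 7.6% of all genes did. LYZ, lysozyme, had 3875, 3792 and 3653 CPM in C-body null libraries, against 2934, 2558 and 2771 CPM in mCherry libraries, and rose by 0.45 ± 0.07 (edgeR adjusted p = 0.0054; 0.058 without C-body null replicate 2). An antisense gene, AC020656.1, lies within LYZ and rose by 0.48 (adjusted p = 0.0073; 0.066 without C-body null replicate 1), named here after its value was seen. Since the strand setting is not given, its reads cannot be told from those of LYZ. IRF8, a transcription factor of monocytes and dendritic cells, had 720.5, 717 and 727 CPM in C-body null libraries, against 521, 566 and 549.8 CPM in mCherry libraries. It rose by 0.40 ± 0.06 (adjusted p = 0.0046), a small change with little spread, and was called whichever library was left out (highest adjusted p = 0.049).

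CCR2, the receptor by which monocytes follow the chemokine CCL2, had 44.1, 44.3 and 43.5 CPM in C-body null libraries, against 26.2, 25.2 and 29.8 CPM in mCherry libraries. It rose by 0.70 ± 0.09 (edgeR adjusted p = 0.0011) whichever library was left out. Its level was 16.1 ± 0.6 CPM in FL-NPM1c and 11.1 ± 0.7 CPM in NTC DMSO libraries, so C-body null libraries were the highest of the 4 groups. TREM2, a lipid receptor of macrophages, had 5.69, 6.93 and 6.65 CPM in C-body null libraries, against 3.10, 3.88 and 2.67 CPM in mCherry libraries, a rise of 0.98 ± 0.18 (adjusted p = 0.013). C3, the central complement protein, had 7.75, 7.79 and 9.37 CPM in C-body null libraries, against 4.23, 4.74 and 4.81 CPM in mCherry libraries, a rise of 0.86 ± 0.14 (adjusted p = 0.0088). The TREM2 call ended without C-body null replicate 2 or 3 or mCherry replicate 1, and the C3 call without C-body null replicate 3 or mCherry replicate 1 (highest adjusted p = 0.065 and 0.059). Other well-known members were near 0, with fold changes of 0.06 and 0.07 for the alarmins S100A8 and S100A9, 0.15 for the lipopolysaccharide co-receptor CD14 and -0.15 for the integrin ITGAM. Without mCherry replicate 2, CSF1R, the receptor of macrophage colony-stimulating factor (0.44, adjusted p = 0.033), and the complement gene C1QA (0.99, adjusted p = 0.045) passed as higher, and the chemokine receptor CX3CR1 (-0.73, adjusted p = 0.032) and the Fc receptor FCGR2A (-0.38, adjusted p = 0.017) as lower. That made 7 of 35 higher and 2 lower, where 3.1% and 2.6% of all genes were.

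Of 22 transcription factors of the monocyte lineage, 2 were called higher, IRF8 and TFEC (background 0.216%), and 0 lower (1 at an unadjusted p under 0.05 and 1 with DESeq2), with a median of 0.11. TFEC, a member of the MITF and TFE family that is expressed in macrophages, had 2.56, 2.83 and 1.86 CPM in C-body null libraries, against 0.746, 1.07 and 1.14 CPM in mCherry libraries. It had the largest rise among the genes named by size, 1.29 ± 0.23 (edgeR adjusted p = 0.0098), and the call ended without C-body null replicate 1 or 2 or mCherry replicate 1 (highest adjusted p = 0.072). The lineage factors SPI1, CEBPA, CEBPB and KLF4 had fold changes of 0.12, 0.12, 0.22 and 0.09, and none passed.

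Of 13 tested genes of the primary granules, 3 were called higher (PRTN3, MS4A3 and LYZ, which is also on the monocyte list) and 1 lower (RNASE6), where 0.216% and 0.378% of all genes were, with a list median of -0.09, which ran from -0.20 to 0.09 over the leave-one-out fits. The number called higher was 1 without C-body null replicate 2 or 3. PRTN3, proteinase 3, had 115, 110 and 145 CPM in C-body null libraries, against 83.4, 85.7 and 60.1 CPM in mCherry libraries, and rose by 0.69 ± 0.13 (edgeR adjusted p = 0.024). MS4A3, a membrane protein of granulocyte and monocyte precursors, had 151, 148 and 143 CPM in C-body null libraries, against 106, 85.6 and 110 CPM in mCherry libraries, and rose by 0.55 ± 0.09 (adjusted p = 0.0093). The groups did not overlap for either gene, but the call of PRTN3 ended without C-body null replicate 1 or 3 or mCherry replicate 3, and that of MS4A3 without C-body null replicate 1, 2 or 3 (highest adjusted p = 0.13 and 0.085). With the 2 groups alone PRTN3 no longer passed (0.089). MPO, myeloperoxidase, had 1.98, 3.09 and 2.72 CPM in C-body null libraries, against 1.71, 1.501 and 1.10 CPM in mCherry libraries (0.84 ± 0.19, adjusted p = 0.062; 0.037 without mCherry replicate 2). Without that library 5 of 13 were higher and 5 lower, where 3.1% and 2.6% of all genes were, and those lower included the eosinophil ribonucleases RNASE2 (-0.51) and RNASE3 (-0.47) and the protease inhibitor CST7 (-0.61).

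Among the other genes with large increases, TIFAB, an inhibitor of TRAF6 signalling, had 18.8, 19.4 and 20.1 CPM in C-body null libraries, against 9.20, 11.1 and 7.72 CPM in mCherry libraries. It rose by 1.05 ± 0.11 (edgeR adjusted p = 3.3e-04), and DCANP1, which overlaps TIFAB on the same strand of chromosome 5, rose by 1.07 ± 0.13. Reads of TIFAB and DCANP1 cannot be told apart where they overlap. HMOX1, haem oxygenase 1, had 42.4, 43.2 and 49.0 CPM in C-body null libraries, against 23.8, 26.2 and 22.6 CPM in mCherry libraries, a rise of 0.89 ± 0.12 (adjusted p = 0.0017). All of these, the nucleotide receptor P2RY2 (0.65 ± 0.10) and the meiotic and myeloid cyclin CCNA1 (0.62 ± 0.10) were called whichever library was left out. TNFAIP3, which encodes the NF-kB inhibitor A20, was the only one called of 19 NF-kB and inflammatory genes, where 0.216% of all genes were called higher. It rose by 0.62 ± 0.11 (adjusted p = 0.011), and the call ended without C-body null replicate 1 or 2 or mCherry replicate 1. CDR2L (0.91 ± 0.18), the lectin receptor CD209 (0.72 ± 0.14), the calcium-binding TESC (0.73 ± 0.15), the membrane protein MLC1 (0.82 ± 0.17) and the phosphatase subunit PPP1R16B (0.67 ± 0.13) rose as well. Each of these 5 calls ended without C-body null replicate 1 or 3 or mCherry replicate 1 or 3, and those of TESC, MLC1 and PPP1R16B also without C-body null replicate 2 (highest adjusted p = 0.14 to 0.20). None of the 5 passed with the 2 groups alone (adjusted p = 0.061 to 0.13).

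**Figure D4:**
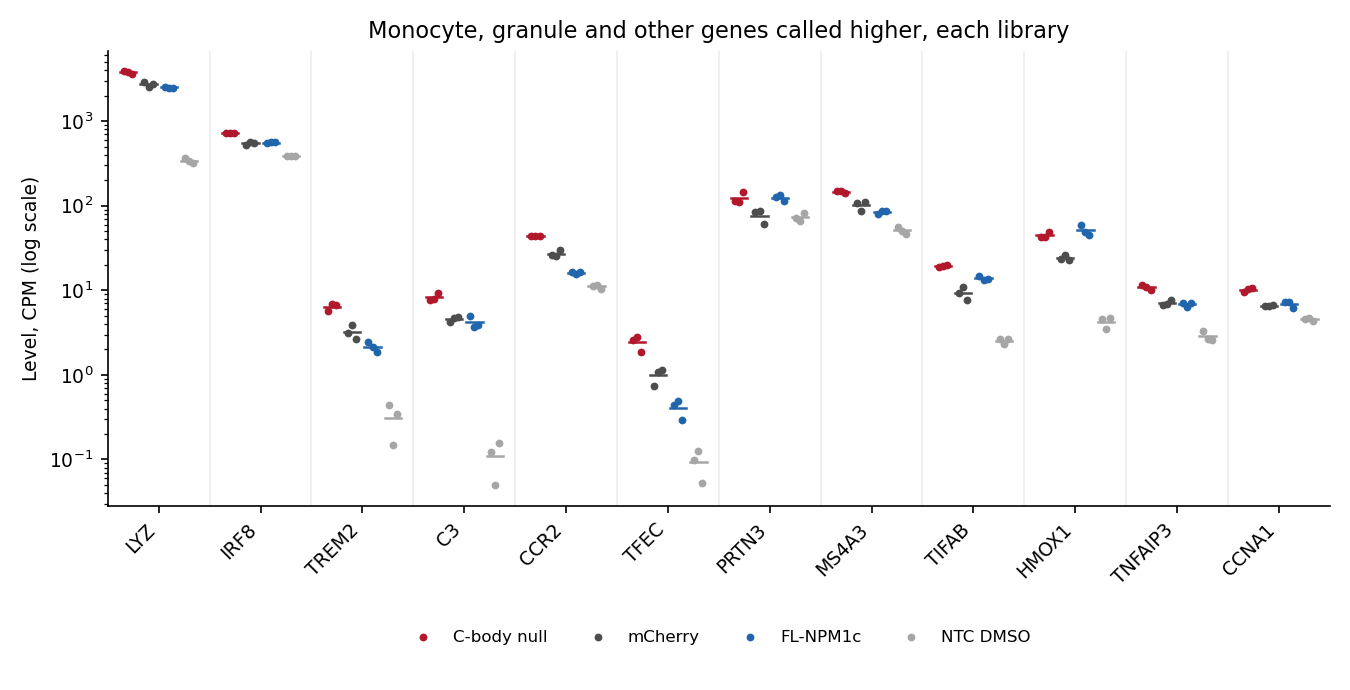
Points are the level of each library in CPM on a log scale for 12 genes called higher, with C-body null, mCherry, FL-NPM1c and NTC DMSO from left to right and a line at each mean. CCR2 lies at 43.5 to 44.3 CPM in C-body null libraries and at 25.2 to 29.8 CPM in mCherry libraries, and HMOX1 and PRTN3 lie near the FL-NPM1c libraries.

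The genes higher than in mCherry libraries were not all higher than in FL-NPM1c libraries, a comparison with the same C-body null libraries. CCR2 was 1.45 ± 0.09 above FL-NPM1c on the log2 scale, TREM2 1.58 ± 0.18 and TFEC 2.59 ± 0.25 (edgeR adjusted p = 2.6e-08, 2.3e-05 and 3.4e-06). HMOX1 was at -0.19 ± 0.11, PRTN3 at -0.01 ± 0.13 and CD209 at -0.01 ± 0.13 (adjusted p = 0.32, 0.97 and 0.97), differences that did not pass the test and whose errors leave room for small changes. Of 35 monocyte and macrophage genes, 21 were higher in C-body null than in FL-NPM1c libraries and 0 lower, where 4.86% and 4.82% of all genes were, with a median of 0.55 against -0.01 over all genes. Against NTC DMSO libraries 33 were higher and 2 lower, where 14.1% and 12.4% of all genes were, with a median of 3.05. LYZ, for one, averaged 3773 ± 112 CPM in C-body null, 2506 ± 33 CPM in FL-NPM1c and 342 ± 25 CPM in NTC DMSO libraries (SD, n = 3 each).

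Several lists of growth and stress genes held no called gene. Of 26 p53 target genes 0 were called (6 at an unadjusted p under 0.05 and 1 with DESeq2), of 38 G1/S and DNA replication genes 0 (3 and 0) and of 35 G2/M and mitosis genes 0 (6 and 1), with medians of 0.05, 0.00 and -0.10. Of 45 ribosome biogenesis factors, which act in the nucleolus where nucleophosmin resides, 0 were called, with a median of 0.14 and 36 positive fold changes. At an unadjusted p under 0.05, 17 of them were higher and 0 lower, where 1339 and 1532 of all 24064 genes were, and DESeq2 called 5 higher and 0 lower, out of 198 and 159 over all genes. Of 78 cytosolic ribosomal proteins 0 were called (20 higher and 0 lower at an unadjusted p under 0.05, and 0 with DESeq2), with a median of 0.11. Without mCherry replicate 2, 9 ribosome biogenesis factors and 5 ribosomal proteins were higher, where 3.1% of all genes were. NOP2, an rRNA methyltransferase, had 125, 135 and 136 CPM in C-body null libraries, against 99.7, 121 and 100.5 CPM in mCherry libraries (0.30, adjusted p = 0.20; 0.40, adjusted p = 0.015 without mCherry replicate 2). The value of mCherry replicate 2 lay closer to the C-body null values than those of the other mCherry libraries. NPM3, a small relative of nucleophosmin, had 0.39 (adjusted p = 0.18; 0.50, adjusted p = 0.021 without mCherry replicate 2). NPM1 was the only one called of 16 nucleophosmin and nucleolar genes, where 0.216% of all genes were called higher. Without mCherry replicate 2, 5 of the 16 were called higher, where 3.1% of all genes were.

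At an unadjusted p under 0.05, 1339 of all 24064 genes were higher and 1532 lower. Of 39 type I interferon genes 0 were called (12 lower and 0 higher at an unadjusted p under 0.05, and 2 lower with DESeq2), with a median of -0.18 and 33 negative fold changes. Without mCherry replicate 2, 7 were called lower, where 2.6% of all genes were, among them OAS1, IFIT5 and SAMD9 (-0.67, -0.67 and -0.59, edgeR adjusted p = 0.047, 0.028 and 0.025). OAS1, an antiviral enzyme, had 1.73, 1.19 and 1.53 CPM in C-body null libraries, against 2.43, 2.32 and 2.27 CPM in mCherry libraries. Of 13 mitochondrially encoded transcripts 0 were called (6 lower and 0 higher at an unadjusted p under 0.05, and 0 with DESeq2), and all 13 had negative fold changes with a median of -0.21. Without mCherry replicate 2, 10 were called lower, where 2.6% of all genes were. The mitochondrial shares of the libraries are given above, and their part in the other results was not tested. Of 26 cholesterol genes 0 were called (9 higher and 0 lower at an unadjusted p under 0.05, and 3 higher with DESeq2). Without mCherry replicate 2, 7 were higher, where 3.1% of all genes were, among them LSS and DHCR7, enzymes of cholesterol synthesis (0.61 and 0.53, adjusted p = 0.013 and 0.014). Further lists with 0 called genes, with their numbers at an unadjusted p under 0.05 and with DESeq2, were 11 genes of the MYC network (5 and 1), 18 of nuclear export (3 and 1), 18 of antigen presentation (3 and 0), 29 of the amino acid response (5 and 0) and 28 lysosomal genes (4 and 0). The 19 heat shock genes (1 and 1), 16 small nucleolar RNA host genes (2 and 0), 13 BCL2 family genes (2 and 1), 9 DNA methylation enzymes (1 and 0) and 6 stem and progenitor genes (1 and 0) were likewise without a called gene. The 5 MYC network genes under the unadjusted threshold were all higher, and 9 of the 11 had positive fold changes, with a median of 0.14. The values of 6 lay wholly above and of 1 wholly below the mCherry values, where 7.36% and 7.6% of all genes did. EPAS1, CREB3L2, NR4A3 and H2AC11 were each the only gene called of 26 glycolysis and hypoxia genes, 21 endoplasmic reticulum stress genes, 28 immediate early genes and 14 histone genes. Over all genes 0.378% were called lower, and the list medians were 0.09, -0.02, 0.01 and -0.22. Of the 14 histone genes 13 had negative fold changes and 1 a positive one. The values of 6 lay wholly below and of 0 wholly above the mCherry values, where 7.6% and 7.36% of all genes did.

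**Figure D5:**
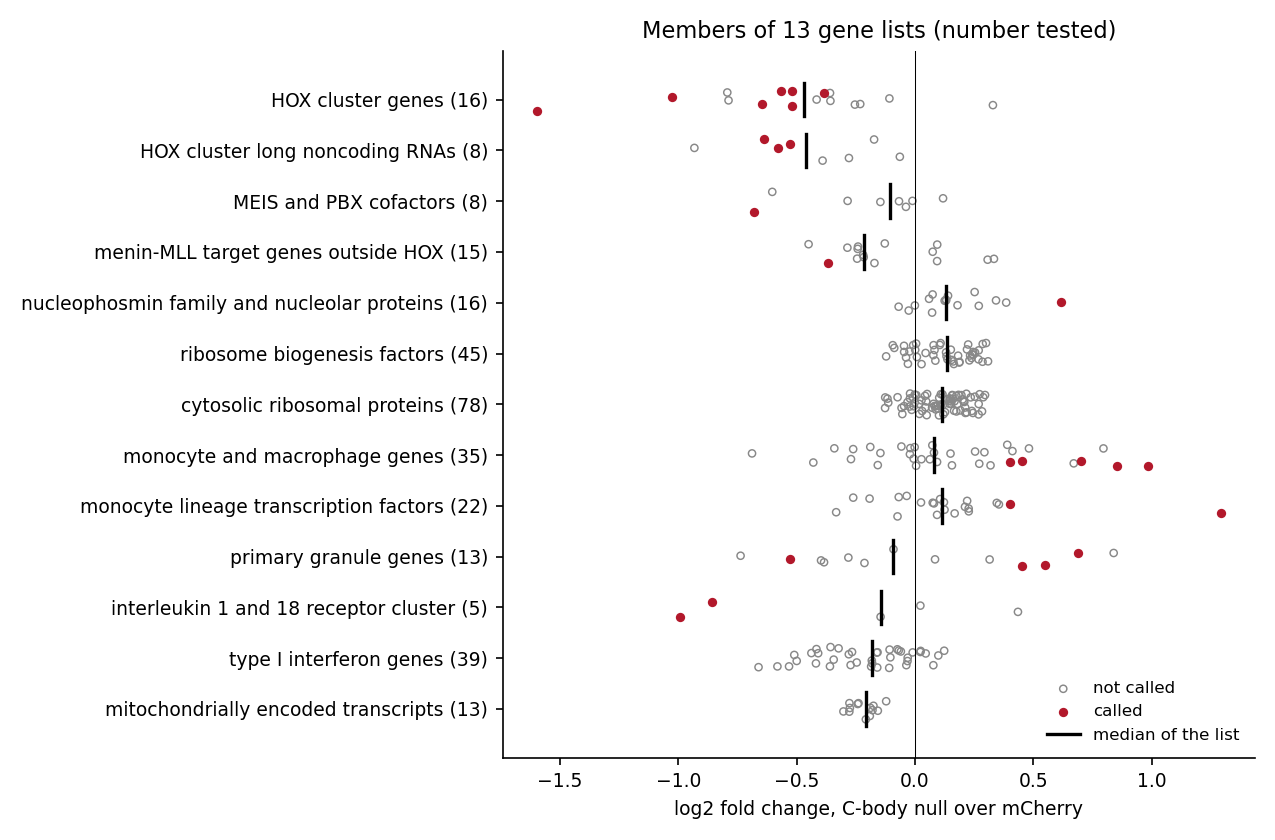
Each point is 1 tested gene of 13 lists (rows, with the number tested), placed at its log2 fold change, C-body null over mCherry. Red points passed the test and black bars are list medians, which lie at -0.47 for HOX cluster genes, 0.08 for monocyte and macrophage genes and -0.21 for mitochondrially encoded transcripts.

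Promoter sequence was examined for genes that moved together, with RefSeq promoters on GRCh38.p14 for 88 of the 143 called genes, taking the 250 bases before the start site. On both strands 5 motifs were searched, chosen after the values were seen. Shares are of genes with a match in at least 1 of their promoters. The myeloid PU.1 motif GAGGAAGT was in 3.85% of genes called higher (1 gene), 6.45% of those called lower (4 genes) and 2.65% of all 27305 genes with a promoter. The MEIS motif TGACAG was in 19.2%, 19.4% and 15.6%, and the E-box CACGTG bound by the TFE family in 7.69%, 11.3% and 7.73%. The C/EBP motif TTGCGCAA and the joint HOX and PBX motif TGATTTAT were in 0 called genes and in 0.146% and 0.938% of all genes with a promoter. These shares describe 26 genes called higher and 62 called lower and were not tested. PRTN3, CCR2 and MEIS1 are shown as examples of a granule gene, a monocyte gene and a cofactor gene that changed. Capitals mark motif matches, which were found in PRTN3 (MEIS starting 191 bases and PU.1 starting 88 bases before the start site, not overlapping) and in neither of the others. Promoters of HOXA13, TIFAB and TP53INP2 (the first of its 2) were also written out and held no match. A match is not evidence that the factor binds.
PRTN3, chr19:840749-840998, plus strand: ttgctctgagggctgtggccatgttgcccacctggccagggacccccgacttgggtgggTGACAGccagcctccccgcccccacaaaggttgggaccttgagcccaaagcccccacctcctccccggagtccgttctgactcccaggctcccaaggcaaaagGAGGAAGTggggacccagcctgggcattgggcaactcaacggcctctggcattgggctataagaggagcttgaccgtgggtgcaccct
CCR2, chr3:46353861-46354110, plus strand: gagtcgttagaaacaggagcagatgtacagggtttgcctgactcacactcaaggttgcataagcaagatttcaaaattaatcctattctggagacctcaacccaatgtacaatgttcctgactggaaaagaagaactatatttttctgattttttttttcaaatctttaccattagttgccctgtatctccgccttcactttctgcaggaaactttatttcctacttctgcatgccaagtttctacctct
MEIS1, chr2:66434875-66435124, plus strand: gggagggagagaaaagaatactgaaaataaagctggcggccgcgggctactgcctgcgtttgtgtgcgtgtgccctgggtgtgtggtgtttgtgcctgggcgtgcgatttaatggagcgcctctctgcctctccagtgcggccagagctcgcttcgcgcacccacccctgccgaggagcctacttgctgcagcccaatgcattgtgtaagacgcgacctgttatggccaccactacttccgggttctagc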

How the data were processed

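Total RNA was made into stranded mRNA libraries, per the labels' protocols. The authors deposited raw counts per gene, and the build hg38 and the tools STAR, featureCounts and DESeq2, without versions, are recorded in the submitters' processing notes. Strand setting, annotation and the treatment of reads with several matches were not stated in the sources used here. Each count column was tied to its sample through the library number that its name carries. Of 78936 lines, 6 broken ones were left out.

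Genes were tested with edgeR 4.0.16 (R 4.3.3): TMM scaling (factors 0.975 to 1.02), the default low-count filter by group (24064 genes tested; 0.0795% of counts removed), 1 robust quasi-likelihood fit of all 12 libraries with a mean per group, and Benjamini-Hochberg adjustment over all tested genes. CPM are counts scaled to the TMM-adjusted library total, log2 fold changes are C-body null minus the other group, and errors are SE for fold changes and SD for levels.

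Named genes were the 15 largest increases and 15 largest decreases among called protein-coding and long noncoding genes with a mean of at least 1 CPM in the higher group and no overlap, every called member of a gene list, NPM1, MEIS1 and every tested HOX gene, except that some items are not reported here. A gene counted as having a symbol only where the reference name table held it, a reading made after the files were seen. The members and lists were chosen with earlier results of these data known. Alternatives were DESeq2 1.42.0, other scalings, filters and thresholds, the 2 groups alone, a replicate block and leaving out each library in turn. Counts of list members in the leave-one-out fits were added after seeing the data.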

Additional observations from a re-analysis of the deposited data

How the results depend on the processing

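The counts in the comparison with mCherry, 52 higher and 91 lower, came to 198 and 159 when DESeq2 was used, 174 and 194 when no filter on low counts was applied, 30 and 33 with the 2 groups alone, 26 and 45 at an adjusted p under 0.01, and 12 and 7 when a log2 fold change of 1 or more in size was also required. Leaving out 1 library gave 22 to 761 higher and 35 to 638 lower, the upper ends both without mCherry replicate 2. With the replicate number as a block they were 32 and 54. Deviations of same-numbered libraries had correlations of 0.006, 0.059 and -0.215, and those of differently numbered libraries ran from -0.201 to 0.195. With 3 libraries a group, these values cannot show whether the numbers pair the libraries. The comparison with FL-NPM1c called 2329 genes, 4410 with the 2 groups alone, and 1365 to 2148 with 1 library left out. It was lowest when FL-NPM1c replicate 2 (1365), C-body null replicate 1 (1378), C-body null replicate 2 (1387) or FL-NPM1c replicate 1 (1511) was omitted. For the 62 named genes, 924 values under alternatives were compared: 686 stayed on the same side of the threshold and 238 no longer passed, 24 of them with the 2 groups alone. No called gene changed direction, while HOXA3, which was not called, had 0.19 without C-body null replicate 2 and 0.35 without mCherry replicate 1, against -0.36 with all libraries. The cause was not tested. With 3 libraries a group, small changes in low genes could go undetected.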
